A study of Mus musculus with 24 samples.

Results

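NRF2, the transcription factor encoded by Nfe2l2, and the antioxidant genes tied to it were followed in mouse pancreatic ductal adenocarcinoma cells. In these cells p53 was switched on either by ending a hairpin's silencing of it or by expressing it from a vector. The set was chosen by name as 9 genes, Nfe2l2, Keap1, Hmox1, Nqo1, Txnrd1, Srxn1, Osgin1, Prdx1 and Txn1, out of 55401 genes in each of 3 deposited count tables, and all 9 were found in every table. All 9 also passed the filter on low counts in every table. The 24 libraries of messenger RNA fall into 11 groups. KPsh cells carry a doxycycline-controlled hairpin against Trp53, the gene of p53, so p53 is silenced on the drug. They were kept for 10 days with doxycycline at 1 µg/ml (n = 3) or without it (n = 3). KPnull cells have no p53 of their own and were given a vector driven by doxycycline, either empty (vector) or holding p53 as wild-type (p53WT), mutant in transactivation domain 1 (TAD1m), mutant in transactivation domain 2 (TAD2m) or mutant in both (TAD12m). Each KPnull group had n = 2, and doxycycline at 1 µg/ml was given 48 hours before harvest in all of them, vector included. The last 4 groups (n = 2 each) were KPsh cells with a guide against Pcyt2 (sgPcyt2), a gene of phosphatidylethanolamine synthesis, alone or with a Pcyt2 cDNA that the guide cannot cut, on or off doxycycline for 6 days. These are lines in culture, and the labels do not say how many clones or separate cultures stand behind the replicates, so the p-values measure the spread between libraries, which may be technical.

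In unstressed cells KEAP1 holds NRF2 in the cytoplasm and hands it to the CUL3 ubiquitin ligase for degradation. Oxidants and electrophiles modify cysteines of KEAP1, NRF2 then gathers in the nucleus, pairs with small MAF proteins and binds antioxidant response elements. NRF2 is regulated largely at the protein level, which messenger RNA does not show. In pancreatic cancer the pathway is known for keeping oxidants low and for support of tumour growth. Of the targets in the set, Hmox1 encodes heme oxygenase 1, which breaks heme down to biliverdin, iron and carbon monoxide, and Nqo1 a quinone reductase. Txn1 (thioredoxin), Txnrd1 (thioredoxin reductase) and Prdx1 (peroxiredoxin) form a chain that passes electrons from NADPH to peroxides, and Srxn1 (sulfiredoxin) repairs peroxiredoxins that have been over-oxidized. Osgin1 encodes an oxidative stress-induced growth inhibitor.

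The promoter letters of the members are given because NRF2 acts through one short element. Windows of 300 bases, from 250 before to 50 after a transcription start, were taken from RefSeq on GRCm38.p6. They covered 8 of the 9 members with 10 windows. Hmox1 had no window, so its promoter was not searched. The element was searched as TGACNNNGC on both strands, with N for any base. It was found in 4 of the 10 windows, 1 each of Nfe2l2, Prdx1, Srxn1 and Txnrd1, and in 12.4% of all 32851 windows of that length. The stretches around the 4 matches are as follows, 5′ to 3′ on the strand of the gene, with the match in capitals.
Nfe2l2: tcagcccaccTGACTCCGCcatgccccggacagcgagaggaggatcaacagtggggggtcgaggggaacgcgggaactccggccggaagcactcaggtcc
Prdx1: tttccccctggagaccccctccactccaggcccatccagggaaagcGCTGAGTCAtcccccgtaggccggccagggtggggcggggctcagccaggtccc
Txnrd1: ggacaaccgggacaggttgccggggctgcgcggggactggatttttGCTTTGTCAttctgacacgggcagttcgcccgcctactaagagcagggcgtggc
Srxn1: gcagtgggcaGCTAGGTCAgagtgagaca
The Nfe2l2 stretch is chr2:75704814-75704913 on the minus strand, with the match at position -240 from the start, and an exon of E030042O20Rik lies in it. The Prdx1 stretch is chr4:116685420-116685519 on the plus strand, with the match at position -133. The Txnrd1 stretch is chr10:82859068-82859167 on the plus strand, with the match at position -92 of 1 of 3 Txnrd1 starts. The Srxn1 stretch is chr2:152105542-152105570 on the plus strand and lies within the exon, with the match at position 29. The matches of Prdx1, Txnrd1 and Srxn1 read on the opposite strand, as TGACTCAGC, TGACAAAGC and TGACCTAGC, and that of Prdx1 also holds TGACTCA, the letters of the AP-1 element. The decamer that p53 binds was found in 0 of the 10 windows and in 8.4% of all windows. A match is a description of letters, and binding was not measured.

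On mm10, Nfe2l2 (ENSMUSG00000015839.6) was counted on chromosome 2 from 75675513 to 75704641 (minus strand) and Keap1 (ENSMUSG00000003308.15) on chromosome 9 from 21229730 to 21239332 (minus). Hmox1 (ENSMUSG00000005413.8) spans 75093621 to 75100589 (plus), Nqo1 (ENSMUSG00000003849.8) 107388225 to 107403206 (minus) and Osgin1 (ENSMUSG00000074063.10) 119437118 to 119446256 (plus), all on chromosome 8. Txnrd1 (ENSMUSG00000020250.10) lies on chromosome 10 from 82860301 to 82897710 (plus) and Srxn1 (ENSMUSG00000032802.8) on chromosome 2 from 152105524 to 152111376 (plus). Prdx1 (ENSMUSG00000028691.12) spans 116685544 to 116700822 (plus) and Txn1 (ENSMUSG00000028367.5) 57943373 to 57956411 (minus) on chromosome 4. Values are counts over the exons of 1 transcript per gene. In the KPnull table another transcript was counted for Keap1 (21230067 to 21238813) and Txnrd1 (82859179 to 82897712), so their levels are not compared across tables. Keap1 shares 10.9% of its exon bases with Gm16754 on the opposite strand, and strands were not told apart in counting. The copies Txn-ps1 and Prdx1-ps had at most 4 and 1 counts in any library.

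Depth ran from 9393966 to 12983420 counts a library in the KPsh table, from 13657592 to 19431250 in the KPnull table and from 13801514 to 17127760 in the Pcyt2 table. Trp53 rose in each comparison meant to raise p53. On withdrawal of doxycycline it rose by 3.61 ± 0.07 on the log2 scale in KPsh cells, by 1.00 ± 0.08 in sgPcyt2 cells and by 2.21 ± 0.07 with the Pcyt2 cDNA (± SE of the fit). Against vector the rise was 6.94 ± 0.09 for p53WT, 6.88 ± 0.09 for TAD1m, 6.60 ± 0.09 for TAD2m and 6.71 ± 0.09 for TAD12m. Cdkn1a, the p53 target that encodes p21, rose on withdrawal by 3.22 ± 0.06 in KPsh cells, 2.01 ± 0.04 in sgPcyt2 cells and 2.95 ± 0.05 with the cDNA. Against vector it rose by 3.15 ± 0.08 with p53WT, 2.78 ± 0.08 with TAD2m and 0.32 ± 0.09 with TAD1m. With TAD12m it was lower than vector by 0.39 ± 0.09 (adjusted p = 0.0197). The TAD1m call did not hold without replicate 1 of TAD1m (adjusted p = 0.0875) or of vector (0.199), nor did the TAD12m call without vector replicate 2 (0.203) or either TAD12m library (0.0899 and 0.109) and with only both groups in the fit (0.154). Epithelial markers were high in every library, with Krt8 or Krt18 reaching 4270, 3000 and 4900 CPM (counts scaled to the library total) in the 3 tables. Of 10 fibroblast markers 9, 10 and 9 stayed below 1 CPM in every library of the 3 tables, and of 10 immune markers 7 did so in each, the highest being Cd14 at up to 161 CPM. The marker sums differed between groups. In KPsh cells the epithelial markers summed to 6840 to 7130 CPM on doxycycline and 12400 to 13000 CPM off it, and the immune markers to 31.1 to 31.4 CPM on and 57.1 to 58.7 CPM off. In KPnull cells the epithelial sums were 5510 to 5930 CPM with vector, 7890 to 8420 with p53WT, 7920 to 8250 with TAD2m, 5180 to 5280 with TAD1m and 5040 to 5730 with TAD12m. The immune sums were 111 CPM in both vector libraries, 169 to 171 with p53WT, 187 to 188 with TAD2m, 137 to 143 with TAD1m and 100 to 108 with TAD12m. Counts on mitochondrial genes made up 2.24% to 2.36% of the total with vector, 3.01% to 3.04% with p53WT and 3.03% to 3.09% with TAD2m. The part of these shifts in the results was not tested. In bulk RNA, fewer cells of a type and less RNA per cell cannot be told apart.

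**Figure D1:**
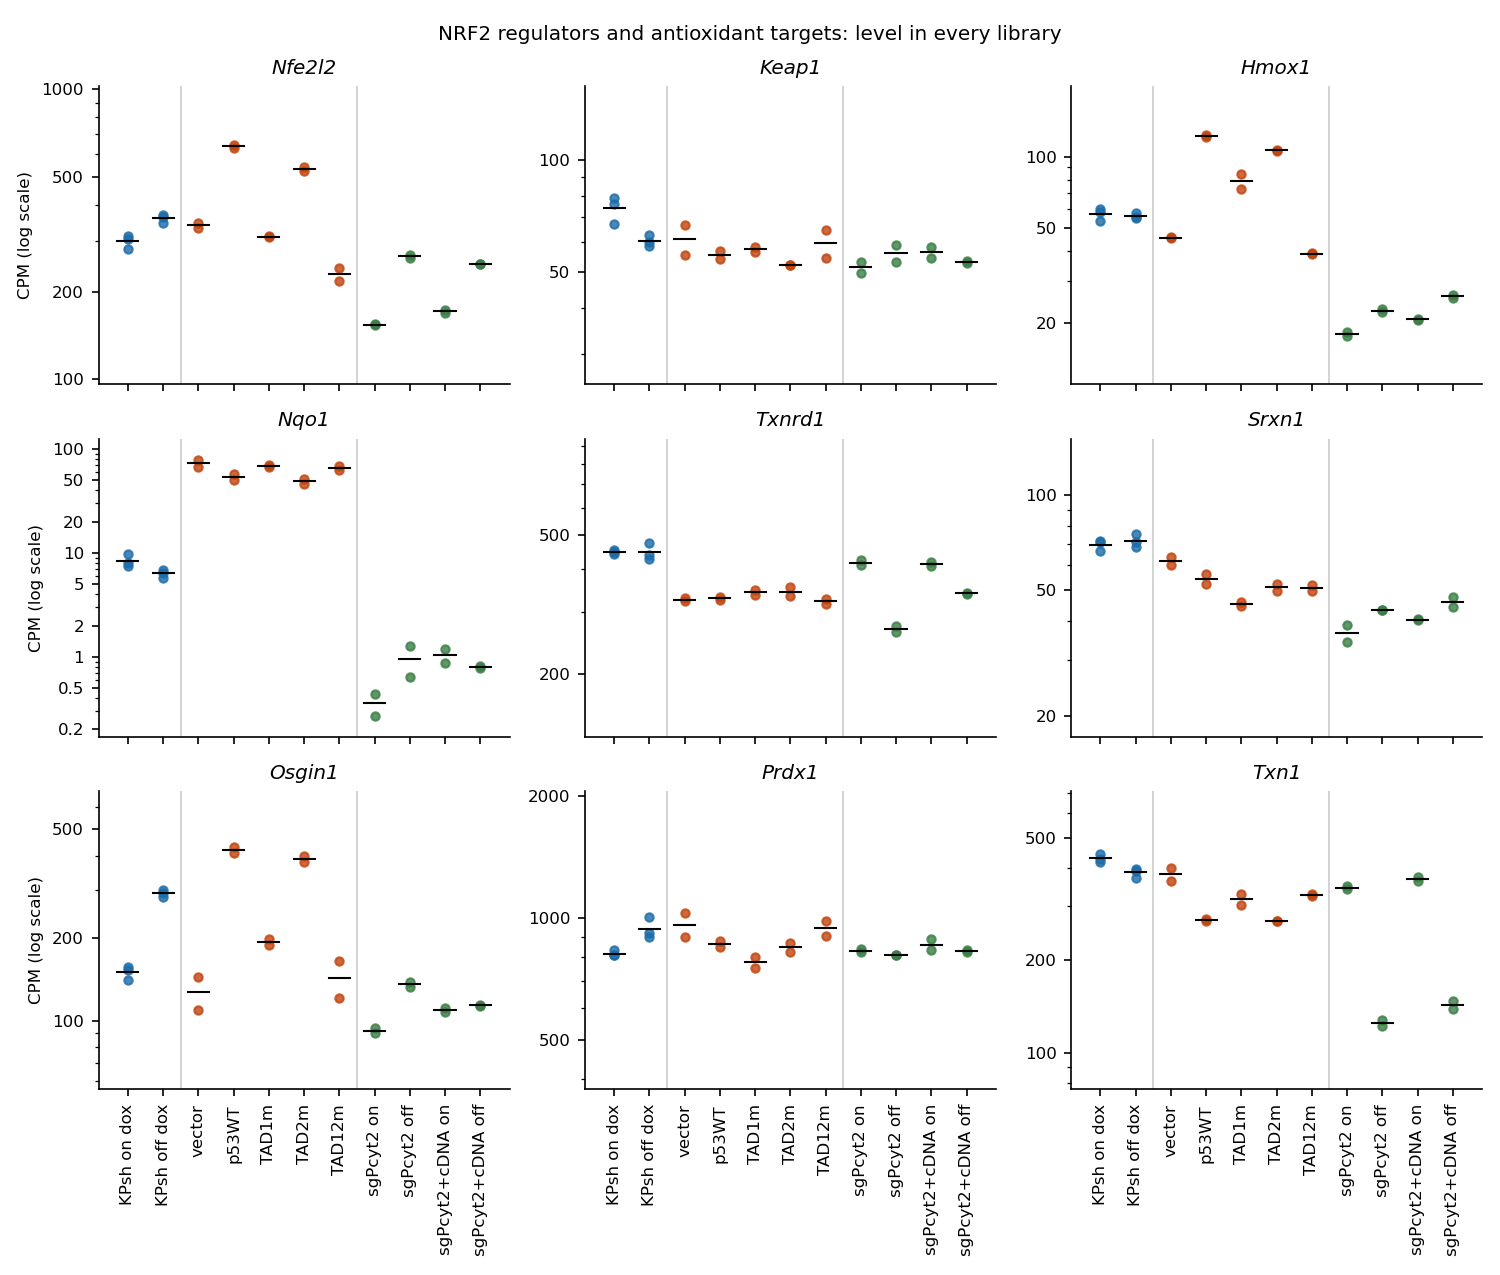
Level of each of the 9 genes in every library, in CPM on a log axis, with groups along the horizontal axis (blue KPsh, orange KPnull, green Pcyt2-edited KPsh). Each point is 1 library and each bar the group mean. Osgin1 and Nfe2l2 stand highest with p53WT, and Txn1 stands lowest in the 4 Pcyt2-edited libraries off doxycycline.

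After 10 days without doxycycline, which restores p53 in KPsh cells, Osgin1 was 1.94-fold higher and the rest of the set had moved little. In KPsh cells, Pcyt2-edited or not, p53 returned only where the drug was absent. Effects of p53 and of the drug therefore cannot be told apart there. Nfe2l2 and Prdx1 rose and Keap1, Nqo1 and Txn1 fell, each by under 0.4 on the log2 scale, and Hmox1, Txnrd1 and Srxn1 did not pass the test. Thus 3 of the 9 genes were higher and 3 lower at an adjusted p under 0.05, in a comparison in which 33.1% of all 13990 genes tested were higher and 31.7% lower. The share of members called is near that background of 64.8%.

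Among the regulators, Nfe2l2 measured 369, 363 and 346 CPM off doxycycline and 313, 280 and 305 CPM on it. All 3 libraries off the drug were above all 3 on it, and the rise was 0.26 ± 0.06 (log2 ± SE, adjusted p = 0.000295). Keap1, the inhibitor, measured 58.6, 60.1 and 62.8 CPM off and 76.3, 79.2 and 67.1 CPM on. It was lower in every library off the drug and fell by 0.29 ± 0.07 (adjusted p = 0.00121). Of 14 further partners and regulators of NRF2, 8 rose and 1 fell, where 33.1% and 31.7% of all genes did. Their median log2 change was 0.14 beside 0.01 for all genes. Without KPsh on-doxycycline replicate 2 the number that rose was 4. Sqstm1, an autophagy receptor that binds KEAP1, rose most firmly among them, by 1.12 ± 0.06 (adjusted p = 2.06e-13), from 272, 266 and 254 CPM on to 583, 534 and 607 CPM off. Maff, a small MAF partner, rose by 0.83 ± 0.08 and Bach1, a repressor at the same elements, by 0.61 ± 0.09, while Cul3, the scaffold of the KEAP1 ligase, fell by 0.38 ± 0.06.

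Hmox1 measured 55.6, 55 and 57.8 CPM off and 60, 53.7 and 58.6 CPM on, with overlapping groups (log2 change -0.03 ± 0.07, adjusted p = 0.68). Nqo1 was low, at 6.45, 5.72 and 6.93 CPM off and 9.67, 7.41 and 7.93 CPM on. Its fall of 0.39 ± 0.16 (adjusted p = 0.032) was lost with DESeq2 (adjusted p = 0.14) and without KPsh on-doxycycline replicate 1 (adjusted p = 0.167), off-doxycycline replicate 1 (0.0521) or replicate 2 (0.106).

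In the thioredoxin chain, Prdx1 was the member with the highest counts, at 1010, 898 and 919 CPM off and 833, 809 and 809 CPM on. The groups did not overlap, and the rise was 0.20 ± 0.05 (adjusted p = 0.00251). Txn1 stood at 397, 370 and 391 CPM off and 442, 418 and 426 CPM on, a fall of 0.15 ± 0.05 (adjusted p = 0.017). Its call was lost without off-doxycycline replicate 2 (adjusted p = 0.0533) or on-doxycycline replicate 1 (adjusted p = 0.054). Txnrd1 (426 to 474 CPM off, 441 to 452 CPM on) and Srxn1 (68.6 to 75.7 off, 66.4 to 71.7 on) overlapped between the groups. Of 16 other thioredoxin, peroxiredoxin and glutaredoxin genes, 11 rose and 2 fell, where 33.1% and 31.7% of all genes did (median 0.27 beside 0.01). Among them Prdx5, a mitochondrial and peroxisomal peroxiredoxin, rose by 0.93 ± 0.06 (adjusted p = 4.44e-12) and Txnrd3 fell by 0.91 ± 0.11 (adjusted p = 2.45e-07).

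Osgin1 measured 283, 292 and 300 CPM off doxycycline and 153, 157 and 141 CPM on it. The groups lay far apart, and the rise was 0.96 ± 0.06 (adjusted p = 2.04e-12). Of 29 other NRF2 targets tested, 11 rose and 10 fell, where 33.1% and 31.7% of all genes did. Their median log2 change was 0.00 beside 0.01 for all genes. Ephx1, the microsomal epoxide hydrolase, went from 30.6, 28.8 and 29.1 CPM on to 211, 203 and 216 CPM off (2.83 ± 0.06, adjusted p = 1.19e-19). Aldh3a1, an aldehyde dehydrogenase, rose by 2.30 ± 0.06, and Ptgr1, a reductase of prostaglandins and aldehydes, by 1.26 ± 0.10. Slc7a11, the cystine transporter, fell by 1.80 ± 0.07 (adjusted p = 1.55e-15), from 207, 206 and 235 CPM to 61.3, 67.1 and 57.3 CPM.

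In KPnull cells, 48 hours of p53WT raised Osgin1 3.32-fold, Hmox1 2.68-fold and Nfe2l2 1.87-fold over vector and lowered Txn1, Nqo1 and Srxn1. Keap1, Txnrd1 and Prdx1 did not pass the test. So 3 genes were higher and 3 lower, where 25.5% of all 15075 genes tested were higher and 25.1% lower (50.6% called).

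Nfe2l2 measured 642 and 630 CPM with p53WT and 346 and 333 CPM with vector, a rise of 0.90 ± 0.06 (adjusted p = 1.33e-09). Keap1 overlapped, at 57 and 54.2 CPM against 55.5 and 66.9 CPM (-0.13 ± 0.09, adjusted p = 0.25), though without vector replicate 1 it was called lower (-0.27, adjusted p = 0.0334). Of 13 further partners and regulators tested, 8 rose and 1 fell, where 25.5% and 25.1% of all genes did. Their median log2 change was 0.32 beside -0.01 for all genes. Sqstm1 rose by 0.95 ± 0.06 (adjusted p = 3.49e-09), from 299 and 327 CPM to 619 and 594 CPM. The small MAF genes Mafk and Maff rose by 0.66 ± 0.11 and 0.62 ± 0.08.

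Hmox1 went from 45.8 and 45.4 CPM with vector to 121 and 124 CPM with p53WT (1.42 ± 0.07, adjusted p = 1.04e-10). Osgin1 went from 110 and 144 CPM to 430 and 411 CPM (1.73 ± 0.18, adjusted p = 0.000206). For both genes the p53WT libraries were well above the vector libraries, and the vector libraries of Osgin1 differed from each other by more than those of Hmox1. Nqo1 fell by 0.43 ± 0.09 (adjusted p = 0.000813), from 78.9 and 66.6 CPM to 50.8 and 57.7 CPM. Txn1 fell by 0.50 ± 0.06 (adjusted p = 3.06e-06), from 400 and 361 CPM to 268 and 272 CPM. Srxn1 fell by 0.19 ± 0.07 (adjusted p = 0.0281), from 60.2 and 63.8 CPM to 52.3 and 56.2 CPM. The Srxn1 call did not hold with DESeq2 (adjusted p = 0.144), with no filter on low counts (0.0814), with only both groups in the fit (0.0582) or without p53WT replicate 1 (0.217) or vector replicate 2 (0.159). Prdx1 stood at 878 and 846 CPM against 1030 and 896 CPM (-0.16 ± 0.07, adjusted p = 0.0574), and without vector replicate 2 it was called lower (-0.25, adjusted p = 0.00532). Txnrd1 overlapped, at 325 and 333 CPM with p53WT and 323 and 330 CPM with vector.

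Of the 29 other NRF2 targets, 12 rose and 6 fell with p53WT (median 0.02, all genes -0.01). Ephx1 rose by 2.12 ± 0.07 (adjusted p = 3.18e-13), from 58.2 and 58 CPM to 244 and 261 CPM. Mgst1, a membrane glutathione transferase, rose by 1.33 ± 0.08, the drug exporter Abcc4 by 0.81 ± 0.05 and Gclc, the catalytic subunit of the enzyme that starts glutathione synthesis, by 0.74 ± 0.06. In the thioredoxin and peroxiredoxin list 6 of 15 rose and 3 fell (all genes 25.5% and 25.1%), led by Prdx5 (1.41 ± 0.07) and Txnip (0.89 ± 0.06), the thioredoxin-binding inhibitor. Without p53WT replicate 2 that count was 8 higher and 1 lower.

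The 3 mutant forms were compared with the same vector libraries and with the same p53WT libraries, so the values below share controls. With TAD2m the same 3 genes, Nfe2l2, Hmox1 and Osgin1, were higher than vector as with p53WT. With TAD1m Hmox1 and Osgin1 were higher by less, and Nfe2l2 was not called. With TAD12m no member was called higher by edgeR, by DESeq2 or at an unadjusted p under 0.05, and Nfe2l2 was lower. Against vector, 3 genes were higher and 4 lower with TAD2m (all genes 24.9% and 24.2%, 49.1% called), 2 higher and 3 lower with TAD1m (19% and 17.5%, 36.4% called), and 0 higher and 3 lower with TAD12m (2.00% and 1.85%, 3.85% called).

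**Figure D2:**
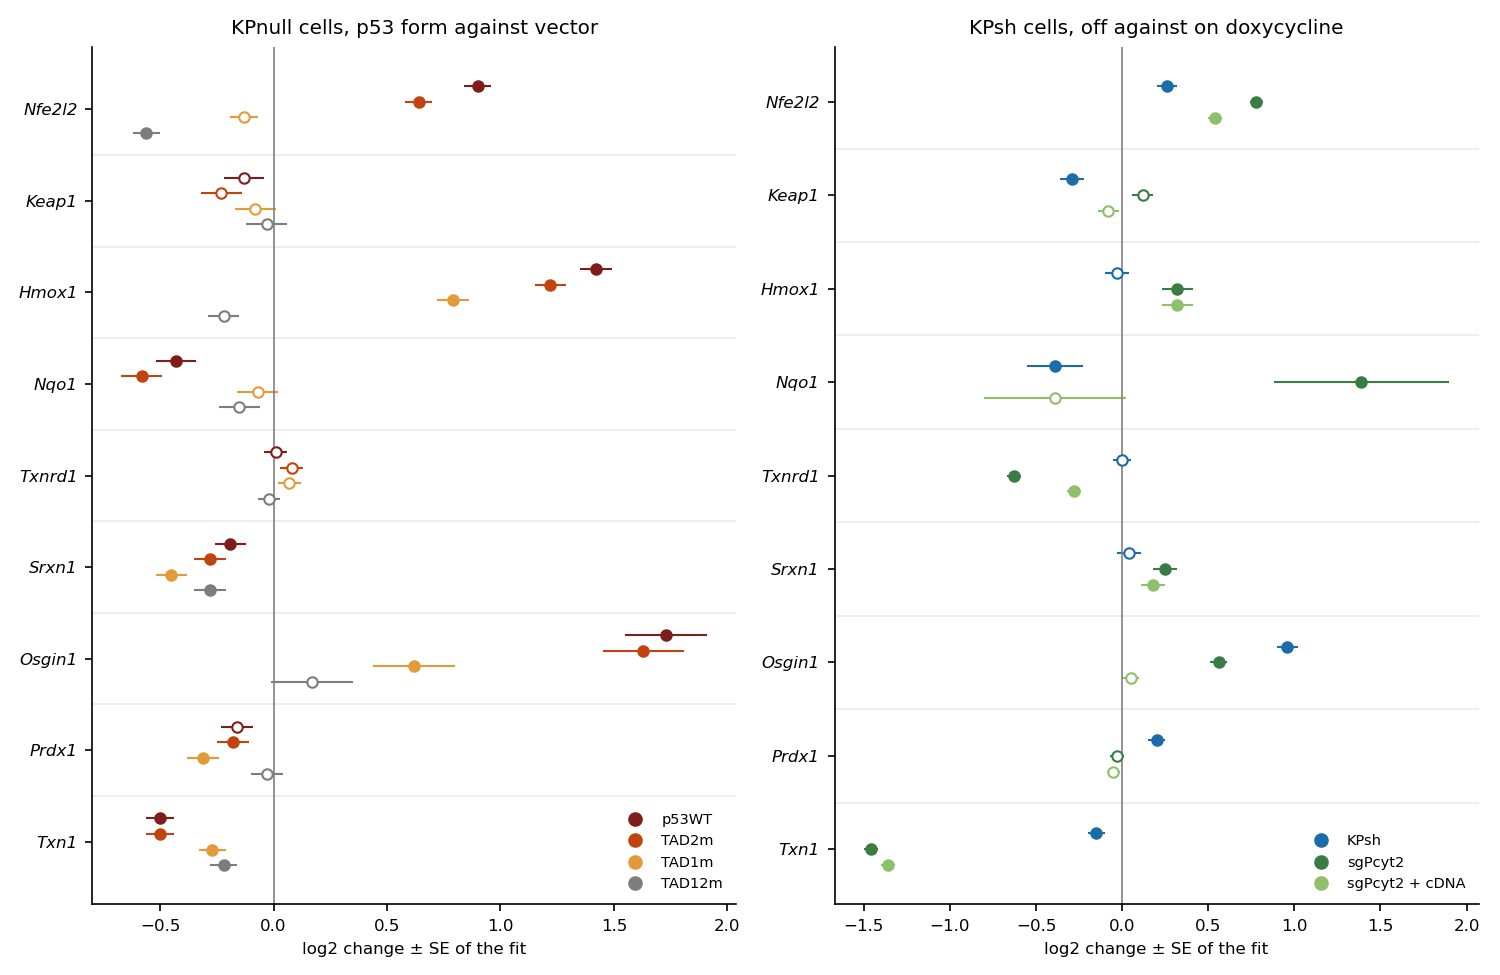
Log2 change of each gene with the SE of the fit, for each p53 form against vector in KPnull cells (left) and for doxycycline withdrawal in the 3 kinds of KPsh cells (right). Filled points passed an adjusted p under 0.05 and open points did not. On the left Osgin1, Hmox1 and Nfe2l2 lie at 1.73, 1.42 and 0.90 with p53WT and at 0.17, -0.22 and -0.56 with TAD12m. On the right Txn1 lies at -1.46 and -1.36 in the Pcyt2-edited cells and at -0.15 in KPsh cells.

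With TAD2m, Nfe2l2 measured 521 and 540 CPM, 0.64 ± 0.06 above vector (adjusted p = 8.23e-08). Against p53WT it was -0.26 ± 0.06 (adjusted p = 0.0637). It was called lower with DESeq2 (adjusted p = 0.0335) and by edgeR with only both groups in the fit (0.00219) or with no filter (0.0106). Hmox1 stood at 105 and 107 CPM (1.22 ± 0.07 over vector) and Osgin1 at 401 and 381 CPM (1.63 ± 0.18 over vector). Nqo1 at 46.2 and 51.4 CPM, Txn1 at 269 and 269 CPM and Srxn1 at 49.8 and 52.3 CPM were lower than vector by 0.58 ± 0.09, 0.50 ± 0.06 and 0.28 ± 0.07. Keap1 stood at 52.1 and 52.2 CPM (-0.23 ± 0.09, adjusted p = 0.0576) and was called lower without vector replicate 1 (-0.36, adjusted p = 0.00575). Prdx1 (826 and 870 CPM) was called lower by 0.18 ± 0.07 (adjusted p = 0.0316), a call lost with DESeq2 (0.0657), with its size factors in edgeR (0.0591) and without either TAD2m library (0.22 and 0.0596) or vector replicate 1 (0.365). None of the 9 genes was called between TAD2m and p53WT by edgeR with all KPnull groups in the fit and the filter on, where 0.285% of all genes were. DESeq2 called 1 of the 9, Nfe2l2. At an unadjusted p under 0.05, 2 of the 9 passed in edgeR, Nfe2l2 and Hmox1. Txnrd1 lay between 318 and 354 CPM in all 10 KPnull libraries and was called in none of the 7 KPnull comparisons. Of the 29 other NRF2 targets, 9 were higher and 7 lower than vector with TAD2m, where 24.9% and 24.2% of all genes were. Fewer targets were called lower without TAD2m replicate 1. Gclc was lower than with p53WT (-0.43 ± 0.06, adjusted p = 0.00179), the 1 target called, and this call was lost without TAD2m replicate 1 (adjusted p = 0.0932) or 2 (0.0603) or p53WT replicate 2 (0.0563) and held without p53WT replicate 1 (0.0097).

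With TAD1m, Nfe2l2 measured 311 and 310 CPM, close to vector (-0.13 ± 0.06, adjusted p = 0.0881) and 1.03 ± 0.06 below p53WT (adjusted p = 7.63e-10). Hmox1 stood at 72.8 and 84.5 CPM, between vector and p53WT. It was 0.79 ± 0.07 above vector (adjusted p = 2.83e-07) and 0.64 ± 0.07 below p53WT (adjusted p = 1.63e-06). Osgin1, at 190 and 199 CPM, was 1.11 ± 0.17 below p53WT (adjusted p = 0.0024). Its rise over vector of 0.62 ± 0.18 (adjusted p = 0.0341) did not hold without TAD1m replicate 1 (adjusted p = 0.0959) or 2 (0.136), without replicate 1 of vector (0.127), or with no filter (0.075). Srxn1 was lowest here of the 5 KPnull groups, at 45.8 and 44.5 CPM, 0.45 ± 0.07 below vector (adjusted p = 7.66e-05) and 0.26 ± 0.07 below p53WT. The second Srxn1 call was lost without TAD1m replicate 2 (adjusted p = 0.0545) or p53WT replicate 2 (0.0755). Prdx1 (801 and 754 CPM) and Txn1 (329 and 303 CPM) were lower than vector by 0.31 ± 0.07 and 0.27 ± 0.06. Nqo1, at 67.9 and 70.8 CPM, lay with the vector libraries. Against p53WT the TAD1m libraries had 2 genes higher and 4 lower, where all genes gave 20.4% and 18.7% (39.1% called). Leaving out p53WT replicate 1 left 0 higher, the genes being Nqo1 (0.26, adjusted p = 0.0862) and Txn1 (0.21, adjusted p = 0.0515). The Nqo1 call was also lost without TAD1m replicate 2 (adjusted p = 0.0553) and that of Txn1 without TAD1m replicate 1 (0.143).

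Of the 29 other NRF2 targets, 9 were higher and 7 lower than vector with TAD1m, or 7 and 3 without vector replicate 1 or TAD1m replicate 2. Against p53WT 7 were higher and 9 lower. Ptgr1 measured 51.8 and 50.4 CPM, against 19 and 17.2 CPM with p53WT (1.49 ± 0.10 higher, adjusted p = 1.22e-08) and 12.8 and 9.6 CPM with vector. Cbr3, a carbonyl reductase, measured 25.2 and 23.6 CPM against 8.14 and 7.72 CPM with p53WT (1.62 ± 0.13, adjusted p = 4.63e-08). Ephx1 went the other way, at 112 and 119 CPM, 1.12 ± 0.06 below p53WT. Maff was 0.48 ± 0.09 below vector with TAD1m, at 29.5 ± 0.378 CPM (SD, n = 2), and 0.62 ± 0.08 above vector with p53WT.

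With TAD12m, Nfe2l2 was the lowest of the 5 KPnull groups, at 242 and 219 CPM. It was 0.56 ± 0.06 below vector (adjusted p = 1.75e-05), below both vector libraries and under all 8 other KPnull libraries. Hmox1 (38.9 and 39.3 CPM, -0.22 ± 0.07, adjusted p = 0.139) and Osgin1 (121 and 165 CPM, 0.17 ± 0.18, adjusted p = 0.831) did not pass against vector. Against p53WT, Nfe2l2 was lower by 1.47 ± 0.06, Hmox1 by 1.64 ± 0.07 and Osgin1 by 1.56 ± 0.17, with adjusted p of 5.27e-12, 2.1e-11 and 0.000341. Nqo1 (68.5 and 63.2 CPM) and Txn1 (328 and 324 CPM) were higher than with p53WT by 0.28 ± 0.09 and 0.27 ± 0.06. These 2 higher and 3 lower genes stand beside 25.5% and 25.6% of all genes (51.2% called), and the Nqo1 call was lost without TAD12m replicate 1 (adjusted p = 0.0979) or p53WT replicate 1 (0.18). Against vector, Srxn1 (49.7 and 52.2 CPM, -0.28 ± 0.07, adjusted p = 0.0258) and Txn1 (-0.22 ± 0.06, adjusted p = 0.0452) were called lower, and both calls were lost with only both groups in the fit (adjusted p = 0.199 and 0.297) and without TAD12m replicate 1 (0.12 and 0.0774). The Srxn1 call was also lost with DESeq2 (adjusted p = 0.0864) and without vector replicate 2 (0.168). That of Txn1 was also lost with DESeq2's size factors in edgeR (adjusted p = 0.0618) and without vector replicate 1 (0.374) or TAD12m replicate 2 (0.118). No partner or regulator of 13 was called against vector by edgeR or DESeq2 (1 at an unadjusted p under 0.05). Of the 29 other targets 6 were lower and 1 higher than vector, where 1.85% of all genes were lower and 2.00% higher. With only both groups in the fit these target counts were 2 and 0. Against p53WT 15 of the 29 were lower and 3 higher. Ephx1 was 0.47 ± 0.07 and Aldh3a1 0.66 ± 0.08 below vector.

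In the Pcyt2-edited cells, 6 days off doxycycline lowered Txn1 to 0.363 of its level on the drug without the cDNA and to 0.390 with it. Txnrd1 also fell in both arms, and Nfe2l2, Hmox1 and Srxn1 rose in both. Osgin1 rose in sgPcyt2 cells, and its change differed between the arms. Without the cDNA 5 genes were higher and 2 lower, where 39.2% of all 14916 genes were higher and 37.1% lower (76.3% called). With the cDNA 3 were higher and 2 lower, where all genes gave 37.3% and 36.3% (73.5% called).

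Nfe2l2 measured 262 and 269 CPM off and 154 and 155 CPM on doxycycline in sgPcyt2 cells (0.78 ± 0.04, adjusted p = 3.59e-22). With the cDNA it measured 250 and 249 CPM off and 169 and 173 CPM on (0.54 ± 0.04, adjusted p = 1.91e-16). The libraries off the drug stood above those on it in both arms, and the rise was larger in sgPcyt2 cells by 0.24 ± 0.06 (adjusted p = 0.00101). Keap1 stayed between 49.7 and 59 CPM in all 8 libraries and was called in neither arm, although without sgPcyt2 off-doxycycline replicate 1 its rise of 0.19 was called (adjusted p = 0.0221), as was the difference of 0.26 between the arms (0.045). Of 14 partners and regulators, 8 rose and 4 fell in sgPcyt2 cells, where 39.2% and 37.1% of all genes did. With the cDNA 8 rose and 3 fell, where 37.3% and 36.3% of all genes did. Without sgPcyt2 on-doxycycline replicate 2 the number that fell in sgPcyt2 cells was 2. Sqstm1 went from 215 and 212 CPM to 577 and 572 CPM (1.43 ± 0.04) and, with the cDNA, from 211 and 214 CPM to 517 and 532 CPM (1.30 ± 0.04). Bach1 rose by 1.16 in both arms (SE 0.07 and 0.08).

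Hmox1 was lower in these cells than in the other tables, at 22.3 and 22.8 CPM off and 18.4 and 17.7 CPM on in sgPcyt2 cells and 25.6 and 26.1 CPM off and 20.7 and 20.8 CPM on with the cDNA. It rose by 0.32 ± 0.09 in each arm (adjusted p = 0.0022 and 0.00137), and the difference between the rises was 0.00 ± 0.13 (adjusted p = 0.996). No group stands in more than 1 table, so levels across tables are set side by side without a test. Nqo1 was near the limit of counting, with 0.442 and 0.272 CPM on and 1.27 and 0.636 CPM off in sgPcyt2 cells and 0.785 to 1.18 CPM with the cDNA. Its rise in sgPcyt2 cells (1.39 ± 0.51, adjusted p = 0.0122) was lost with DESeq2 (adjusted p = 0.13) and without off-doxycycline replicate 1 (0.307) or on-doxycycline replicate 2 (0.0984).

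Txn1 fell from 349 and 340 CPM to 122 and 128 CPM in sgPcyt2 cells (-1.46 ± 0.04, adjusted p = 4.66e-32) and from 363 and 373 CPM to 148 and 139 CPM with the cDNA (-1.36 ± 0.04, adjusted p = 4.09e-31). The 4 libraries off the drug lay far below the 4 on it, and the falls differed by -0.10 ± 0.06 (adjusted p = 0.224). Without sgPcyt2 off-doxycycline replicate 2 that difference was -0.17 and was called (adjusted p = 0.0397). Its reductase Txnrd1 fell from 410 and 424 CPM to 263 and 274 CPM (-0.63 ± 0.04, adjusted p = 3.06e-19) and with the cDNA from 419 and 407 CPM to 342 and 339 CPM (-0.28 ± 0.04, adjusted p = 1.73e-08). That fall was larger in sgPcyt2 cells (difference -0.36 ± 0.06, adjusted p = 1.68e-06). Srxn1 rose from 34.3 and 38.8 CPM to 43.3 and 43.3 CPM (0.25 ± 0.07, adjusted p = 0.00214) and with the cDNA from 40.3 and 40.5 CPM to 47.6 and 44.2 CPM (0.18 ± 0.07, adjusted p = 0.0164). The first call was lost without sgPcyt2 on-doxycycline replicate 1 (adjusted p = 0.106), and the second with DESeq2 (0.126) and without cDNA off-doxycycline replicate 1 (0.147) or either cDNA library on the drug (0.0672 and 0.0699). Prdx1 lay between 811 and 886 CPM in all 8 libraries and was called in neither arm.

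Among 16 other thioredoxin, peroxiredoxin and glutaredoxin genes, 5 rose and 9 fell in sgPcyt2 cells, where 39.2% and 37.1% of all genes did (median -0.32 beside 0.02). With the cDNA 5 rose and 8 fell, beside 37.3% and 36.3% of all genes (median -0.17 beside 0.02). With DESeq2, 3 rose and 9 fell in sgPcyt2 cells. Without sgPcyt2 off-doxycycline replicate 1 or on-doxycycline replicate 2 the number that rose was also 3, and without off-doxycycline replicate 2 it was 3 with 10 that fell. Prdx4, the peroxiredoxin of the endoplasmic reticulum, fell from 45.9 and 46.3 CPM to 8.93 and 9.47 CPM (-2.32 ± 0.10) and with the cDNA from 46.8 and 42.9 CPM to 7.78 and 8.65 CPM (-2.44 ± 0.10). Txnip rose from 67.9 and 66.5 CPM to 314 and 307 CPM (2.21 ± 0.05) and with the cDNA from 60 and 57.1 CPM to 315 and 314 CPM (2.43 ± 0.05). Beside these changes, counts on mitochondrial genes made up 1.86% to 2% of the total in the 4 libraries on doxycycline and 3.31% to 3.5% in the 4 off it, and the summed epithelial markers 6370 to 7530 CPM on and 10300 to 11500 CPM off. Their part in the results was not tested.

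Osgin1 rose from 93.8 and 89.8 CPM to 133 and 138 CPM in sgPcyt2 cells (0.56 ± 0.05, adjusted p = 1.87e-14). With the cDNA it measured 108 and 111 CPM on and 113 and 114 CPM off (0.05 ± 0.05, adjusted p = 0.308). The rises differed by 0.51 ± 0.07 (adjusted p = 6.36e-08). Trp53 rose less in sgPcyt2 cells (difference -1.21 ± 0.12, adjusted p = 9.66e-12), as did Cdkn1a (-0.94 ± 0.07, adjusted p = 6.32e-16). The part of these p53 differences in the results was not tested. Over the set, the test of the difference between the arms called 3 genes higher in sgPcyt2 cells (Nfe2l2, Nqo1 and Osgin1) and 1 lower (Txnrd1), where 12.8% and 12.4% of all genes were called. The Nqo1 difference of 1.78 ± 0.65 (adjusted p = 0.0388) was lost without sgPcyt2 off-doxycycline replicate 1 (adjusted p = 0.355), sgPcyt2 on-doxycycline replicate 2 (0.145), cDNA on-doxycycline replicate 2 (0.185) or either cDNA library off the drug (0.0952 and 0.0897), and with no filter (0.0644), and DESeq2 gave no adjusted p for it.

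Of the 29 other NRF2 targets, many differed between the arms. In sgPcyt2 cells 20 rose and 4 fell, where 39.2% and 37.1% of all genes did. With the cDNA 17 rose and 7 fell, where 37.3% and 36.3% of all genes did. The median log2 changes were 0.94 and 0.38, beside 0.02 for all genes in both. The difference between the arms was higher in 17 and lower in 1, where 12.8% and 12.4% of all genes were called. Its median was 0.45 beside 0.02 for all genes. Ephx1 went from 6.32 and 6.18 CPM to 418 and 407 CPM without the cDNA (6.04 ± 0.07) and from 16.3 and 17.2 CPM to 350 and 359 CPM with it (4.40 ± 0.06). Gsta4, a glutathione transferase that clears lipid aldehydes, went from 27.5 and 29.6 CPM to 818 and 814 CPM (4.84 ± 0.05) and from 67.3 and 69.5 CPM to 747 and 759 CPM (3.46 ± 0.04). For both genes the groups off the drug were close and the groups on it apart. Gstm1, another glutathione transferase, differed off the drug, at 372 and 337 CPM without the cDNA and 106 and 108 CPM with it (1.73 ± 0.05 higher, adjusted p = 9.49e-29). Slc7a11 also did so, at 375 and 325 CPM against 128 and 148 CPM (1.34 ± 0.07, adjusted p = 3.82e-10). On the drug, Gstm1 measured 24.6 and 24.6 CPM without and 35.6 and 41.3 CPM with the cDNA, and Slc7a11 53 and 52.5 CPM against 84.3 and 82.4 CPM.

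**Figure D3:**
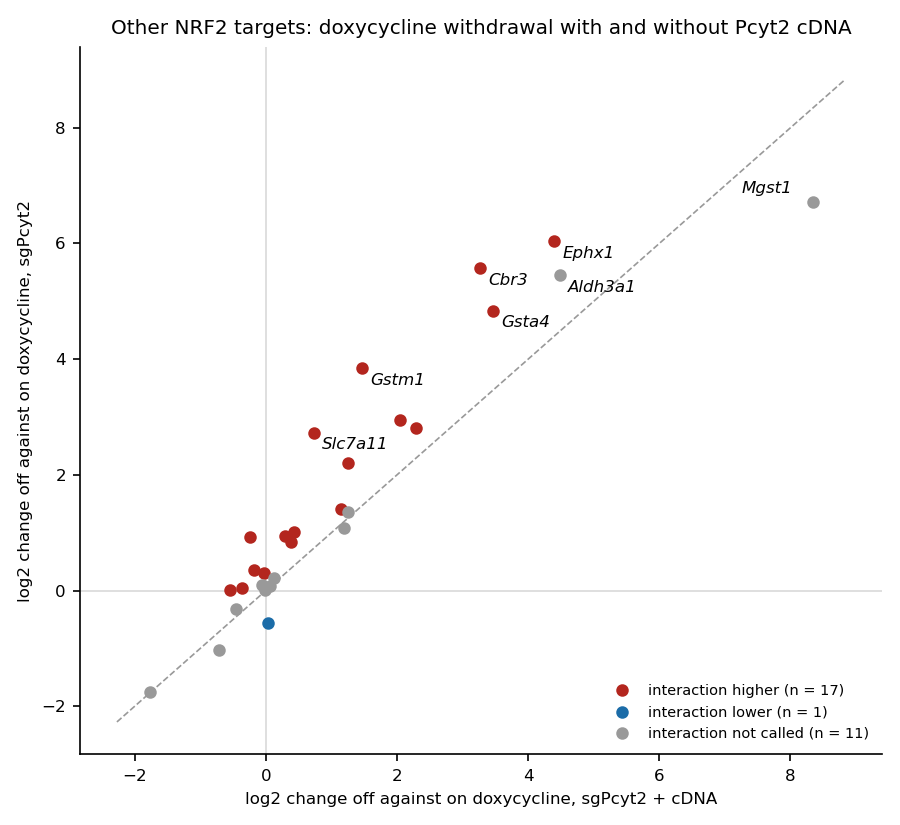
Log2 change on doxycycline withdrawal of 29 other NRF2 targets, in sgPcyt2 cells (vertical axis) against sgPcyt2 cells with the Pcyt2 cDNA (horizontal axis), with the dashed line at equal change. Red and blue points passed the test of the difference between the arms, 17 above the line and 1 below it, and grey points did not. Mgst1 was at 0 counts in both cDNA libraries on doxycycline, so its position depends on the prior count of the fit.

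The same cells were also compared across the cDNA at each state of the drug. Pcyt2 RNA without the cDNA was at 0.0109 of its level with the cDNA on doxycycline (log2 change -6.51 ± 0.06). Off the drug it was at 0.00891 of that level (-6.81 ± 0.06). All 4 of these groups carry the guide, so loss of Pcyt2 and its excess with the cDNA cannot be told apart. On doxycycline 3 members were lower without the cDNA and 0 higher, where 8.40% of all genes were higher and 10.0% lower, and of the 29 other targets 18 were lower and 0 higher (median -0.25). Osgin1 was lower by 0.25 ± 0.05 (adjusted p = 0.00011). The call of Nfe2l2 (-0.15 ± 0.04, adjusted p = 0.00655) was lost with DESeq2 (adjusted p = 0.0618), with no filter (0.0528) and without cDNA on-doxycycline replicate 2 (0.102). That of Nqo1 (-1.52 ± 0.49, adjusted p = 0.0237) was lost without the same library (adjusted p = 0.247) and without sgPcyt2 on-doxycycline replicate 1 (0.0508) or 2 (0.183), and DESeq2 gave no adjusted p for it. Off doxycycline 1 member was higher and 2 lower, where all genes gave 16.3% and 16.8%. Osgin1 was higher by 0.26 ± 0.05 (adjusted p = 2.32e-05), Txnrd1 lower by 0.34 ± 0.04 (adjusted p = 1.64e-09) and Txn1 lower by 0.20 ± 0.04 (adjusted p = 0.000472). Osgin1 thus lay below the cDNA libraries on the drug and above them off it. Of the other targets 15 were higher and 6 lower off the drug, with a median of 0.12.

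Levels can be compared between genes only per length of the counted transcript. Per kilobase, Prdx1 and Txn1 had the highest levels in every group, and Prdx1 stood above Txn1 in all but KPsh cells on doxycycline, where Txn1 was at 411 ± 12.1 CPM per kb and Prdx1 at 358 ± 6.09 (SD, n = 3). With p53WT, Txn1 (259 ± 3.13) and Nfe2l2 (258 ± 3.45, SD, n = 2) did not differ beyond their spread. Nfe2l2 came next in KPsh cells off doxycycline (146 ± 4.85), level with Osgin1 (146 ± 4.17). Srxn1 and Keap1 were the lowest pair in all 5 KPnull groups, at 16.1 ± 0.333 and 16 ± 0.344 CPM per kb with TAD1m, which do not differ beyond their spread. Nqo1 was last in the other 6 groups, from 5.41 ± 0.769 CPM per kb in KPsh cells on doxycycline down to 0.232 ± 0.0781 in sgPcyt2 cells on it, while in vector cells it reached 47.2 ± 5.65.

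Across the 11 groups, each set against the mean of its own table, group values of Osgin1 spread over 1.74 on the log2 scale, Hmox1 over 1.64, Txn1 over 1.56, Nfe2l2 over 1.47 and Nqo1 over 1.32. Both ends of the Nqo1 range, -0.87 and 0.45, were Pcyt2-edited groups on doxycycline. Its counts there were few, and the 0.1 CPM added to every value before taking logs weighs on that range. Txnrd1 spread over 0.63, Srxn1 over 0.45, Prdx1 over 0.30 and Keap1 over 0.29. The highest group was p53WT for Osgin1, Hmox1 and Nfe2l2, and for Txn1 the sgPcyt2 cells with the cDNA on doxycycline. The genes with the pattern most like that of Osgin1, among 13149 tested in all tables, were Asah2, Bcl2l1 and Exd1, with root mean square log2 differences of 0.189, 0.198 and 0.202 over the 11 groups, where the median gene was at 0.61. For Hmox1 they were Spata2l (0.185), Uggt2 (0.189) and Exd1 (0.198), with a median of 0.53.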

How the data were processed

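TRIzol RNA was made into 24 stranded poly(A) libraries, per the labels' protocols. The deposited values are expected counts per gene in steps of 0.5, without normalization. STAR 2.6.1c, HOMER and mm10 are named in the submitters' processing notes. Per the file headers, reads on both strands were counted over exons of GENCODE vM25, with 1 transcript per gene. The members and gene lists were chosen with earlier results of these data known.

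Counts were rounded, which changed a library total by at most 0.0533%, and genes were kept with filterByExpr. All groups of a table entered 1 quasi-likelihood fit in edgeR 4.0.16 (R 4.3.3, with limma 3.58.1) with TMM scaling. Benjamini-Hochberg adjustment ran over all genes tested, and adjusted p-values under 0.05 were called. DESeq2 1.42.0, other scaling, no filter, a replicate block, only the compared groups and leaving out each library were the alternatives, and the test was checked on simulated data. No replicate pair was alike within sampling noise.

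Other genes named are, per list and comparison, up to 4 called genes of 5 CPM or more on average with the largest changes, and not all of those are given. Columns of KPsh cells off doxycycline and of the cDNA cells were matched to samples by elimination. The growth protocol puts every KPnull group on doxycycline, and this was followed, although the series text also mentions cells without it. Exon overlaps came from GENCODE vM21 on the same assembly.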

Additional observations from a re-analysis of the deposited data

Results flagged for a closer look

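The change on doxycycline withdrawal differed between sgPcyt2 cells and sgPcyt2 cells with the Pcyt2 cDNA in 4 of the 9 genes, by the interaction term of edgeR's quasi-likelihood test, which called 25.2% of all 14916 genes tested. The change without the cDNA minus that with it was 0.24 ± 0.06 for Nfe2l2, 0.51 ± 0.07 for Osgin1, -0.36 ± 0.06 for Txnrd1 and 1.78 ± 0.65 for Nqo1 on the log2 scale, and the Nqo1 value rests on few counts. The Nqo1 call was lost without any 1 of 5 of the 8 libraries (adjusted p of 0.0897 to 0.355) and with no filter on low counts (0.0644).

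The log2 changes of some genes, Prdx1 and Srxn1 among them, had opposite signs in different kinds of cells, with no overlap between the libraries compared. Nqo1 was at -0.43 with p53WT against vector and at 1.39 on withdrawal in sgPcyt2 cells, where its counts were few. Txnrd1 was at 0.08 with TAD2m against vector, which was not called, and at -0.63 on withdrawal in sgPcyt2 cells. Prdx1 was 0.20 higher off than on doxycycline in KPsh cells and at -0.16 with p53WT against vector in KPnull cells, which did not pass the test (adjusted p = 0.0574). Srxn1 was at -0.19 with p53WT against vector and 0.18 higher off than on doxycycline in sgPcyt2 cells with the cDNA, and neither Srxn1 call held with DESeq2 (adjusted p = 0.144 and 0.126). These differences were not tested, because the cells stand in separate tables.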

How the results depend on the processing

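Over all alternatives, 973 values of the 9 genes kept direction and side of the threshold, 58 lost a call, 16 gained one and 39 changed sign, all of the last in changes that were not called. The number of genes called moved by over 1.5 times in 5 comparisons. Between TAD2m and p53WT it was 43, and 107 with no filter, 99 with only both groups in the fit and 13 to 23 without 1 library. Between TAD12m and vector it was 580, and 160 with only both groups in the fit and 352 to 504 without 1 library. For sgPcyt2 against cDNA cells on doxycycline it was 2746, 1433 with DESeq2 and 1680 to 2141 without 1 library, the lowest without cDNA on-doxycycline replicate 2. DESeq2 called 2862 in place of 4944 off doxycycline and 2236 in place of 3759 for the difference between the arms. The cause was not tested. Other scaling moved the median of all genes by at most 0.016.

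Same-numbered replicates did not deviate together in every pair (correlations of -0.135 to -0.122 in the KPsh table, -0.271 to 0.431 in the KPnull table and -0.081 to 0.013 in the Pcyt2 table). A replicate block gave 8665 called genes in place of 9063 for KPsh cells, 7548 in place of 7623 for p53WT against vector and 11270 in place of 11376 for sgPcyt2 cells. Among the 9 genes the block ended the call of Nqo1 in KPsh cells (adjusted p = 0.0509) and gave one for Prdx1 with p53WT against vector (adjusted p = 0.0474). Crossed numbers, chosen after the data were seen, were run with only the compared groups in the fit. They gave 8262 called genes for p53WT against vector, 8569 for TAD2m against vector and 8567 for TAD12m against p53WT. With only the compared groups and no block these were 7207, 7238 and 6957.

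The following uncalled log2 changes passed zero without 1 library, with the range given. Keap1 ranged from -0.27 to 0.01 for p53WT, -0.23 to 0.05 for TAD1m and -0.17 to 0.11 for TAD12m against vector, -0.03 to 0.22 for TAD12m against p53WT and -0.01 to 0.15 for sgPcyt2 against cDNA cells off doxycycline. Nqo1 ranged from -0.19 to 0.05 for TAD1m against vector and -0.32 to 0.65 for sgPcyt2 against cDNA cells off doxycycline. Osgin1 ranged from -0.07 to 0.39 and Prdx1 from -0.12 to 0.07 for TAD12m against vector, and Prdx1 from -0.06 to 0.01 for TAD2m against p53WT. Srxn1 ranged from -0.01 to 0.07 in KPsh cells. Txnrd1 ranged from -0.05 to 0.03 in KPsh cells, -0.04 to 0.01 for TAD12m and -0.01 to 0.03 for p53WT against vector, and -0.01 to 0.04 for sgPcyt2 against cDNA cells on doxycycline. Txn1 ranged from -0.02 to 0.01 for TAD2m against p53WT, also 0.01 with no filter. For the difference between the arms, Hmox1 ranged from -0.05 to 0.03 (0 with other scaling, -0.04 with no filter, -0.01 with DESeq2), Prdx1 from -0.02 to 0.07 (-0.02 with no filter) and Srxn1 from -0.03 to 0.15. Trp53 ranged from -0.05 to 0.19 for sgPcyt2 against cDNA cells on doxycycline. Nqo1 had few counts in the Pcyt2 table, and its changes there are limited by depth.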

Other observations

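Among superoxide dismutases, catalase and glutathione peroxidases, genes went both ways. In KPsh cells 5 of 6 tested were higher off doxycycline and 1 lower (all genes 33.1% and 31.7%). With p53WT 3 of 8 were higher and 3 lower (all genes 25.5% and 25.1%). Sod2 was lower by 0.61 ± 0.08 in KPsh cells, 0.24 ± 0.08 with p53WT, 0.45 ± 0.08 with TAD1m and 0.38 ± 0.08 with TAD2m. Its p53WT call was lost with DESeq2 (adjusted p = 0.0785). It was also lost without p53WT replicate 2 or vector replicate 1, where the log2 change was -0.16 in each. Cat and Gpx4 were higher in each comparison of p53 on against off except TAD12m. Cat, which breaks down hydrogen peroxide, rose by 0.75 ± 0.06 with p53WT, 0.75 ± 0.06 with TAD2m and 0.69 ± 0.06 with TAD1m over vector, and by 1.18 ± 0.05 and 0.89 ± 0.05 on doxycycline withdrawal without and with the Pcyt2 cDNA. Gpx4, which reduces lipid hydroperoxides in membranes, rose by 1.02 ± 0.06 in KPsh cells off doxycycline, from 187 ± 6.53 to 380 ± 28.2 CPM (SD, n = 3), by 0.65 ± 0.07 with p53WT, and by 0.89 ± 0.04 and 0.92 ± 0.04 without and with the cDNA. Against vector, TAD12m moved none of the 8 genes tested past the threshold in edgeR or DESeq2, and 0 passed at an unadjusted p under 0.05, in a comparison in which 3.85% of all genes were called.

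Gpx1, the cytosolic glutathione peroxidase, fell by 0.19 ± 0.05 on withdrawal in sgPcyt2 cells (adjusted p = 0.000354) and rose by 0.54 ± 0.05 with the cDNA (adjusted p = 9.66e-15). The changes differed by -0.73 ± 0.06 (adjusted p = 1.27e-12, edgeR). Nxn, nucleoredoxin, fell in sgPcyt2 cells from 45.1 and 42.7 CPM to 19.8 and 22.9 CPM, and with the cDNA it measured 44.8 and 43.4 CPM on and 45.8 and 44.2 CPM off, a difference of -1.07 ± 0.11. Prdx4 was at 0 to 0.405 CPM in the 10 KPnull libraries and at 42.9 to 52.8 CPM in the 6 KPsh libraries. Those tables hold different cells, and that gap was not tested.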
